A study of Mus musculus with 16 samples.

Results

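The BCL2 family genes described here are *Bcl2*, *Mcl1*, *Bcl2l1* and *Bcl2a1b*, whose products oppose apoptosis, and *Bax*, *Bcl2l11*, *Bbc3*, *Pmaip1*, *Bid* and *Bmf*, whose products promote it. They were taken by symbol from a matrix of 56691 genes, in which all 10 were present, and 32322 of the genes had a count in some cell. The cells were 637 single light zone (LZ) germinal center (GC) B cells from mouse popliteal lymph nodes, sequenced by SMART-seq2, which reads whole transcripts without molecular identifiers. They came from 8 OVA-primed young male hosts (C57BL/6J or B6.SJL) boosted with NP-OVA, each of which had received a mixture of B1-8hi BTKC481S and B1-8hi BTKWT B cells. Together with a lambda light chain, the B1-8hi knock-in heavy chain forms a receptor that binds the hapten NP with high affinity. In part of the B1-8hi cells in GCs, the paper detected no binding of an NP tracker. Acalabrutinib blocks the kinase BTK, and BTK with the C481S change resists it. The 5 acalabrutinib hosts (A7, A8, A10, A11 and A12; 381 cells) received the drug by mouth before the cells were sorted, and the 3 vehicle hosts (V5, V7 and V9; 256 cells) received the carrier alone. The paper describes the dose as one without a measurable effect on cell survival. The name of a cell gave its host but not its genotype, so both genotypes of a host were pooled, the host was the replicate, and an effect in one genotype alone cannot be read from these values. The cell names gave 15 plates, each named within 1 host, and the 2 independent experiments of the study were not tied to hosts. Differences between hosts therefore cannot be told apart from those between plates or experiments. Plates within a host were not compared, so their part in differences between cells of the same host was not tested.

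BCL2 family proteins control whether the outer mitochondrial membrane is breached during apoptosis. BCL2, MCL1, BCL-xL (*Bcl2l1*) and A1 (*Bcl2a1b*) hold BAX and its relative BAK in check, and the BH3-only proteins BIM (*Bcl2l11*), PUMA (*Bbc3*), NOXA (*Pmaip1*), BID and BMF either neutralize these guardians or activate BAX directly. GC B cells are known for low BCL2 protein, for dependence on MCL1 and for rapid death unless they receive survival signals through the B cell receptor and from T follicular helper cells.

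Total counts per cell ran from 132412 to 1825420 with a median of 789357. Median totals were 687239 in the 259 cells called G1, 861810 in the 215 called S and 875899 in the 163 called G2/M, so shares of cells are also given with every cell thinned to 459128 counts, which kept 573 cells. Of 11 GC B cell markers 10 had counts, their summed level lay between 5695 and 8028 CPM (counts per 1e+06 counts) per host, and *Ms4a1* had 0 counts. The 8 T cell markers summed to between 165 and 395 CPM per host, nearly all of it *Lck*, which had counts in 51.6% of cells. The others were found in 0.157% (*Cd3e*) to 2.67% (*Trac*) of cells. Plasma cell markers summed to between 893 and 1522 CPM, of which *Jchain* made up most. Macrophage and monocyte markers summed to at most 36.3 CPM and erythroid markers to at most 2.26 CPM. Of the macrophage and monocyte markers, *Adgre1* had counts in 38.1% of cells, *Cd68* in 9.11% and the others in at most 2.20% (*Csf1r*).

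The 10 genes differed widely in level (the plot of levels by host). Levels of different genes are compared as CPM per kilobase of exon, with exon lengths from another assembly than the counts. Reads in introns were counted but introns are not in this length, and gene spans ran from 4.39 kb (*Mcl1*) to 176.1 kb (*Bcl2*). The part of intron reads in the order of genes was not tested. On this scale *Bid* was highest, at 62.05 ± 11 (SD, n = 8 hosts), followed by *Bax* at 29.1 ± 6.12, *Mcl1* at 25.5 ± 4.8 and *Bcl2l1* at 20.7 ± 9.44. *Pmaip1* stood at 9.77 ± 6.92 and *Bcl2l11* at 7.70 ± 3.63. The lowest were *Bcl2a1b* at 4.44 ± 2.17, *Bmf* at 3.81 ± 2.29, *Bbc3* at 3.22 ± 2.08 and *Bcl2* at 2.08 ± 1.52. In this order the steps from *Bid* to *Bax* and from *Bcl2l1* to *Pmaip1* exceeded the SDs of both genes, whereas all other neighbours differed by less than the larger of their SDs.

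**Figure D1:**
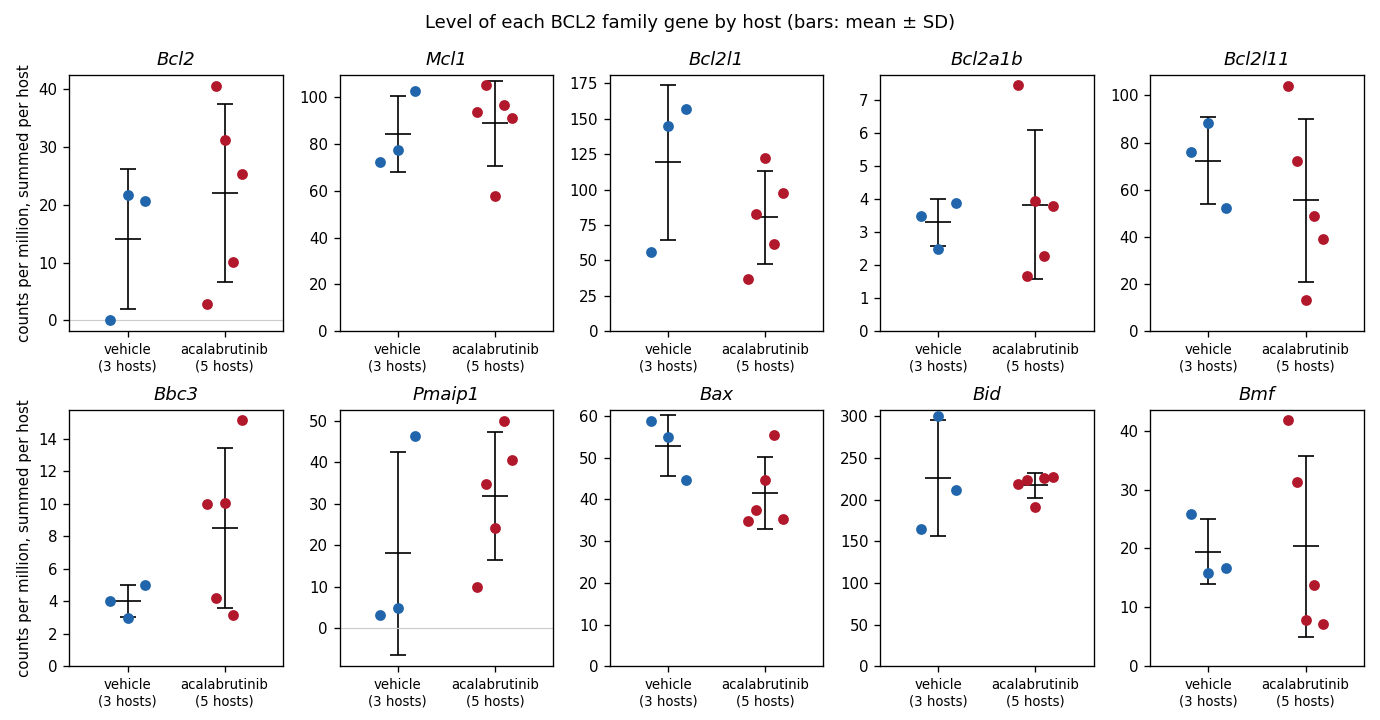
CPM of each gene summed over the cells of a host, with 3 vehicle hosts in blue and 5 acalabrutinib hosts in red. Horizontal marks are means and bars are 1 SD, each panel has its own linear scale, and the ranges of the groups overlapped for all 10 genes.

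*Bcl2*, the founding guardian of the family, had a count in 84 cells (13.2%, 95% exact binomial interval 10.7 to 16.1), but 60 of these (71.4%) held fewer than 10 counts. The limit of 10 counts was chosen after the values were seen. The gene spans 176.1 kb, and reads in introns were counted. The 24 cells with 10 or more counts had a median of 245 CPM, and 13 cells held 90% of all *Bcl2* counts. The top cell alone held 14.0%. These 24 cells came from 7 hosts, and V5 had none. Of the 24 cells, 20 had a count of *Bcl6* (83.3%, against 86.6% of the other cells), 15 of *S1pr2* (62.5% against 78.5%), and 1 cell each of the T cell genes *Cd3e*, *Cd3d*, *Cd3g* and *Trac*, and the part of these genes in the *Bcl2* level was not tested. Per host, *Bcl2* stood at 2.76, 40.5, 31.1, 10.1 and 25.4 CPM in A7, A8, A10, A11 and A12, and at 0.105, 21.6 and 20.6 CPM in V5, V7 and V9. The lowest host was a vehicle host and the highest an acalabrutinib host, and the groups overlapped.

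*Mcl1*, the guardian on which GC B cells depend, was the most even of the anti-apoptotic genes. It had a count in 250 cells (39.2%, 35.4 to 43.2), 191 of them with 10 or more counts. Its level was 93.5, 105, 57.8, 96.3 and 91.1 CPM in the acalabrutinib hosts, in the order above, and 72.2, 77.5 and 103 CPM in the vehicle hosts. Apart from A10, which was lowest, the acalabrutinib hosts lay in or close to the range of the vehicle hosts.

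*Bcl2l1*, which encodes BCL-xL, was found in 145 cells (22.8%, 19.6 to 26.2), and 107 of them held 10 or more counts, with a median of 524 CPM in those. Its level was 37.1, 83.1, 122, 61.5 and 97.8 CPM in the acalabrutinib hosts and 56.0, 144 and 157 CPM in the vehicle hosts. V7 and V9 lay above every acalabrutinib host, whereas V5 lay among the lower ones.

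*Bcl2a1b* encodes A1, a short-lived guardian induced by NF-κB. It too was found in 145 cells (22.8%), but at low counts: 91 of the 145 (62.8%) held fewer than 10, and the highest cell held 57. Host levels were 7.47, 1.67, 3.94, 2.27 and 3.80 CPM under acalabrutinib and 3.49, 2.50 and 3.90 CPM under vehicle. The mouse carries near-identical copies of this gene, and its level is uncertain for that reason. Of these, *Bcl2a1a* stood at 0.821 CPM over all cells and *Bcl2a1d* was listed at 0 in every cell. In GENCODE M21 transcripts the longest open reading frame of *Bcl2a1b*, 519 bases, differed from that of *Bcl2a1d* at 6 positions and from that of *Bcl2a1a* at 11. Of the 768 stretches of 50 bases in the *Bcl2a1b* transcript, 442 (57.6%) also occurred in a copy, against 79.5% for *Bcl2a1d*. The first 90 bases of the 3 reading frames are shown because they hold the densest differences; capitals mark the 6 positions at which the copies differ:
Bcl2a1a: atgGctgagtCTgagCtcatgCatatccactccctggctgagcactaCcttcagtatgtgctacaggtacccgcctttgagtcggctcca
Bcl2a1b: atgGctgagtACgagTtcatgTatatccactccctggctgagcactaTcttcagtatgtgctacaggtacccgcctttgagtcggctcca
Bcl2a1d: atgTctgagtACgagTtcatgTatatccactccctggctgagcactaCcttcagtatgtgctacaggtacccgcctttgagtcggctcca

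A read of the last 42 bases of this window could have come from any of the 3 copies. How reads that match several genes were counted is not given in the sources used here.

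*Bax*, the pore-forming effector, was among the most widely found genes. It had a count in 260 cells (40.8%, 37.0 to 44.7), 231 of them with 10 or more. Host levels were 34.8, 37.4, 44.7, 55.5 and 35.4 CPM under acalabrutinib and 58.9, 55.0 and 44.7 CPM under vehicle. A7, A8 and A12 lay below every vehicle host, and A10 and A11 lay among them. *Bak1*, the gene of the other effector, was listed at 0 in all 637 cells. *Ms4a1*, a gene that B cells use, was listed at 0 as well, so a 0 of this kind sets no limit on the level of *Bak1* or *Bcl2a1d*, and why they had none was not tested.

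*Bid*, a BH3-only gene whose product links death receptors and caspase-8 to mitochondria, was the most widely found of the 10. It had a count in 304 cells (47.7%, 43.8 to 51.7), and its host levels were 218, 223, 191, 226 and 227 CPM under acalabrutinib and 164, 301 and 212 CPM under vehicle. The acalabrutinib hosts lay inside the range of the vehicle hosts. *Bcl2l11*, which encodes BIM, the main BH3-only killer of lymphocytes, was found in 108 cells (17.0%, 14.1 to 20.1). It stood at 104, 72.1, 13.1, 49.1 and 39 CPM in the acalabrutinib hosts and at 76.2, 88.4 and 52.3 CPM in the vehicle hosts, and A7 was highest and A10 lowest of all.

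The other BH3-only genes were rare. *Pmaip1*, a p53 target whose product NOXA binds MCL1 and A1, was found in 54 cells (8.48%, 6.43 to 10.9). It varied widely between vehicle hosts, with 3.08, 4.84 and 46.3 CPM in V5, V7 and V9, against 9.97, 34.8, 24.1, 49.8 and 40.6 CPM in the acalabrutinib hosts. *Bmf*, whose product responds to cytoskeletal stress, was found in 50 cells (7.85%, 5.88 to 10.2), at 7.17 to 41.7 CPM under acalabrutinib and 15.8 to 25.8 CPM under vehicle. *Bbc3*, a p53 target encoding PUMA, was found in 23 cells (3.61%, 2.30 to 5.37), and 1 cell held 19.1% of its counts. Its level ran from 3.15 to 15.2 CPM under acalabrutinib and from 3.0 to 5.01 CPM under vehicle.

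The first comparison was between acalabrutinib and vehicle hosts. It addressed whether the level of these genes in the pooled cells of a host differed with the drug. Each pool includes BTKC481S cells, which resist the drug. No member passed the test. Counts summed per host were fitted with the quasi-likelihood test of edgeR, with Benjamini-Hochberg adjustment over the 18016 genes tested; a call is an adjusted p of at most 0.05. Of the 10 members 0 were called, where 0% of all genes were, and 0 members and 616 genes had an unadjusted p below 0.05. DESeq2 also called 0 of the 10, and 94 of all genes (0.548%). The host ranges of acalabrutinib and vehicle overlapped for every member, where they did not for 2.19% of the genes that averaged 1 CPM or more over hosts. The median log2 fold change was 0.08 over the members and 0.02 over all genes.

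What these 8 hosts could show differed from gene to gene. For *Bid* the log2 fold change was -0.07 with a 95% interval from -0.52 to 0.38, and for *Mcl1* 0.08, from -0.47 to 0.62, although thinning turned the sign of *Mcl1* (-0.13). For *Bax* the value was -0.38 (-1.02 to 0.26), for *Bcl2l1* -0.58 (-1.44 to 0.29) and for *Bcl2l11* -0.38 (-1.62 to 0.86). The interval of *Bcl2* ran from -2.09 to 3.40 around 0.66, that of *Bcl2a1b* from -2.33 to 2.77 around 0.22, that of *Bmf* from -1.54 to 1.71 around 0.09, that of *Pmaip1* from -1.05 to 2.78 around 0.86 and that of *Bbc3* from -1.15 to 3.29 around 1.07. Folds of 4 in either direction therefore lay inside the interval of *Bcl2* and *Bcl2a1b*, and outside those of *Bid*, *Mcl1*, *Bax*, *Bcl2l1*, *Bcl2l11* and *Bmf*. These limits are for both genotypes pooled and not for drug-sensitive cells alone. *Pmaip1* depended on V9, without which its log2 fold change was 2.90 (edgeR adjusted p = 0.693), and *Bcl2* depended on V5, without which it was 0.07.

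Treatment was also compared within states of the cell cycle. In cells called G1, 0 of 10 members were called by edgeR (0% of 13493 genes, 575 of them below 0.05 unadjusted) and 0 by DESeq2 (1.04% of genes). *Bcl2l1* was the 1 member with an unadjusted p below 0.05: its log2 fold change was -1.54 ± 0.67 (SE), with an adjusted p from edgeR of 0.9999. In cells called S or G2/M edgeR called 0 members (0% of 15618 genes, 446 unadjusted) and DESeq2 0 (0.335% of genes), and *Bcl2l1* stood at 0.18 ± 0.48. The test of the difference between the states, the interaction, gave 1.64 ± 1.04 for *Bcl2l1* (edgeR p = 0.147, adjusted p = 1.0), so an effect particular to G1 was not shown. The interaction was called for 0 members by edgeR (0% of 20848 genes, 513 unadjusted) and for 0 by DESeq2 (2.88% of genes). Unadjusted, 3 of 10 members had a p below 0.05 by DESeq2, where 12.7% of all genes did.

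**Figure D2:**
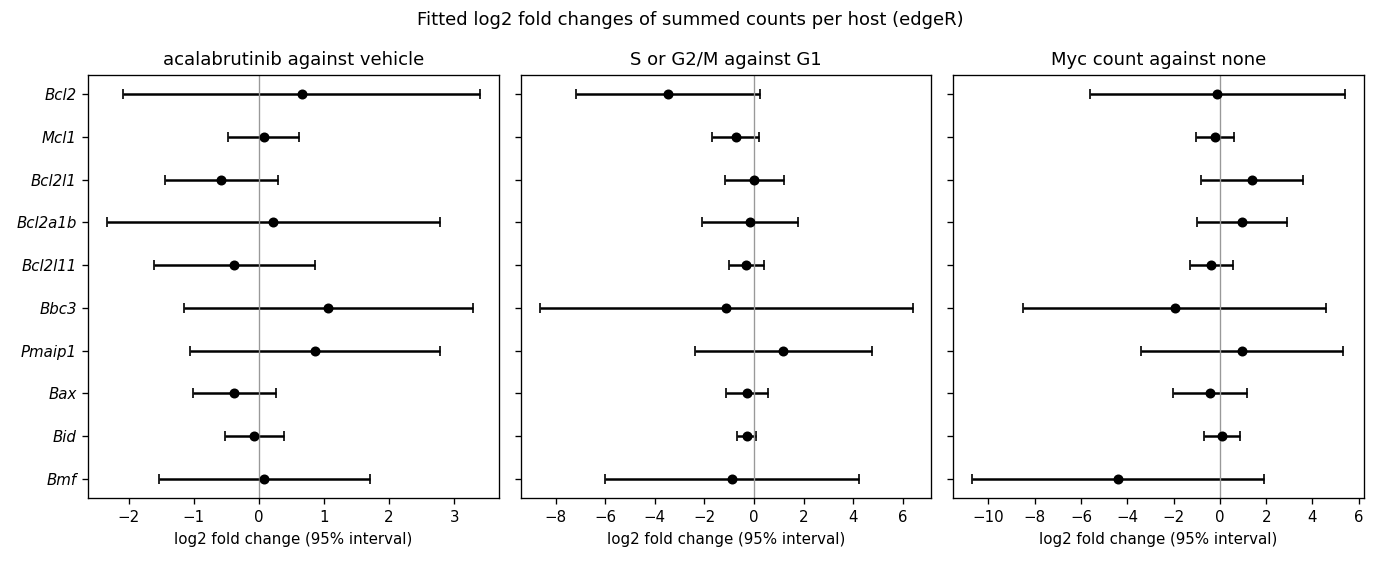
Log2 fold changes of the 10 genes with 95% intervals from edgeR fits to counts summed per host (8 hosts), for acalabrutinib against vehicle, for cells called S or G2/M against G1, and for cells with a *Myc* count against cells with none. Every interval includes 0, and the horizontal scales differ between panels.

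The second comparison was between cells called S or G2/M and cells called G1 of the same hosts. Phases were called with 43 S and 54 G2/M genes, none of them a member. Of the members edgeR called 0 of 10, where 1.69% of genes were called, and 0 members had an unadjusted p below 0.05. DESeq2 called 1, *Bcl2*, where it called 12% of genes. The median log2 fold change of the members was -0.30, against 0.23 over all genes, a median that was 0.08 by DESeq2 and -0.07 without the host term. Of the 10 GC B cell markers tested, edgeR called 4 lower and 0 higher in cycling cells and DESeq2 7 lower and 0 higher, DESeq2 called 1 of 7 T cell markers lower, and their part in the members' values was not tested.

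*Bcl2* differed between phases in level more than in the share of cells with a count, but passed by DESeq2 and not by edgeR. Pooled over cells, its level was 37.9 CPM in G1, 0.745 CPM in S and 21.3 CPM in G2/M. Its medians over hosts were 42.5, 0.311 and 0.317 CPM, and the highest host in G2/M stood at 92.6 CPM. The pooled G2/M level was therefore not that of the typical host. The share of cells with a count was 12.4% (8.61 to 17.0) in G1, 13.0% (8.83 to 18.3) in S and 14.7% (9.67 to 21.1) in G2/M. Cells with 10 or more counts numbered 14 in G1 (5.41%, 2.99 to 8.90), 3 in S (1.40%, 0.289 to 4.02) and 7 in G2/M (4.29%, 1.74 to 8.65). The intervals of these shares overlapped. By host, *Bcl2* was lower in S or G2/M than in G1 in 7 of 8, with levels of 0.529, 21.1, 1.16, 0.0691, 36.4, 0.0900, 0.159 and 8.08 CPM in A7, A8, A10, A11, A12, V5, V7 and V9, against 4.95, 57.9, 86.0, 32.2, 1.10, 0.138, 53.2 and 52.8 CPM in G1. A12 was the exception, and V5 rested on 3 cells with a count. With thinned counts, and phases called again from them, it was lower in 6 of 8, V5 having turned. The log2 fold change was -3.47 ± 1.68 (SE), with an interval from -7.19 to 0.25 (edgeR adjusted p = 0.486; DESeq2 adjusted p = 0.00519, n = 8 hosts), and with 1 host left out the edgeR value ran from -4.28 (without A12) to -2.74 (without A11 or V7).

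*Mcl1* was likewise highest in G1, at 116 ± 43.4 CPM (SD, n = 8 hosts) against 63.3 ± 38.2 in S and 72.8 ± 22.6 in G2/M. It was lower in S or G2/M than in G1 in 7 of 8 hosts, with A10 the exception. With thinned counts it was lower in 6 of 8, A7 having turned. Its log2 fold change was -0.75 ± 0.43 (edgeR adjusted p = 0.572; DESeq2 adjusted p = 0.197). The share of cells with a *Mcl1* count was 38.6% in G1, 38.6% in S and 41.1% in G2/M. *Bcl2l1* (0.01 ± 0.54) and *Bcl2a1b* (-0.15 ± 0.87) gave values near 0 with wide intervals.

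Of the pro-apoptotic genes, *Bax* was found in 34.4% of G1 cells (28.6 to 40.5), 48.8% of S cells (42.0 to 55.7) and 40.5% of G2/M cells (32.9 to 48.4). Thinned to equal depth, these shares were 37.9%, 48.0% and 40.9%. By host the share of *Bax* was higher in S or G2/M than in G1 in 6 and lower in 2. The mean difference was 9.94 ± 14.2 percentage points with deposited counts and 5.78 ± 12.1 with thinned counts (SD, n = 8 hosts). The level of *Bax* did not follow the share, at 50.6, 49.0 and 37.7 CPM in G1, S and G2/M, so no order is read from it. *Pmaip1* was found in 5.79% of G1 cells (3.28 to 9.37), 8.84% of S cells (5.40 to 13.5) and 12.3% of G2/M cells (7.66 to 18.3), and its level was 26.9, 26.6 and 51.7 CPM. At equal depth its share was higher in S or G2/M than in G1 in 7 of 8 hosts and equal in 1. Some of these hosts rested on very few cells, with 1 of 32 against 0 of 17 in V5, 2 of 29 against 0 of 23 in V7 and 3 of 28 against 1 of 19 in A10. A7, the equal host, had 0 of 15 and 0 of 14, and with deposited counts it was lower, at 0 of 21 against 1 of 24. The log2 fold change of *Pmaip1* was 1.18 ± 1.61 (edgeR adjusted p = 0.90). *Bid* gave -0.29 ± 0.18, *Bcl2l11* -0.30 ± 0.31, *Bmf* -0.90 ± 2.31 and *Bbc3* -1.12 ± 3.40. At equal depth 9 of the 10 genes, all but *Bbc3*, had a count in 5% of cells or more. Of these 9, 0 had a higher share in cycling cells in every host, where 11.8% of such genes did, and 0 had a lower one, where 0.564% did.

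**Figure D3:**
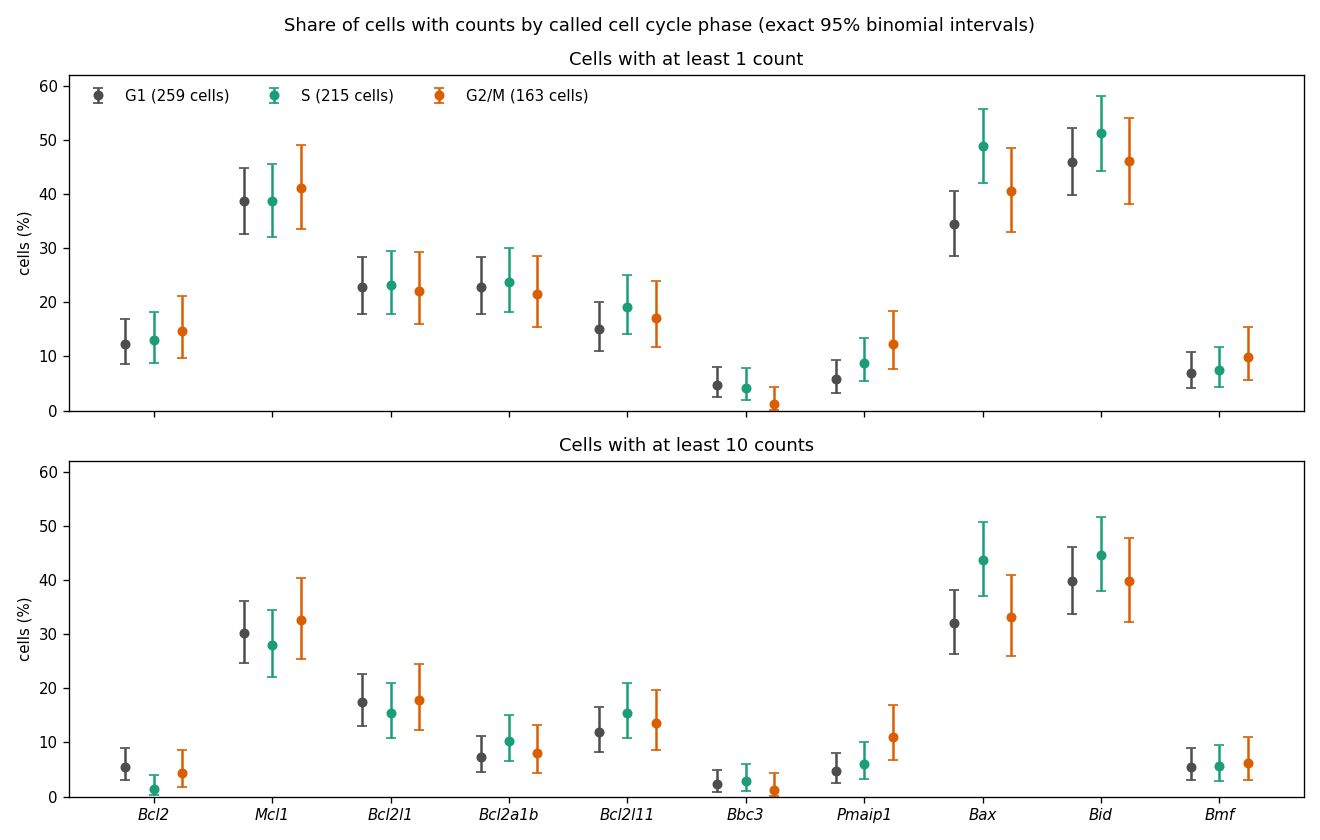
Percent of cells with at least 1 count (top) and at least 10 counts (bottom) of each gene, for 259 G1, 215 S and 163 G2/M cells, with exact 95% binomial intervals that cover counting error only. Cells are pooled over hosts, so the intervals leave out differences between hosts. Intervals of the 3 phases overlap for each gene except *Bax* at 1 count in G1 and S. The share of all cells for *Bcl2* is 13.2% at 1 count and 3.77% at 10.

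The third comparison was between cells with and without a count of *Myc*, which marks LZ cells that have received selection signals. Of 637 cells 177 (27.8%) had a *Myc* count. Their median total was 890495 counts, against 751578 in the others. A *Myc* count was found in 20.8% of G1, 35.8% of S and 28.2% of G2/M cells. The part of phase in the shares by *Myc* class was not tested. edgeR called 0 of 10 members, where 0.0238% of genes were called, and 0 members had an unadjusted p below 0.05. DESeq2 called 1, *Bmf*, where it called 8.73% of genes. The median log2 fold change was -0.16 over the members and -0.72 over all genes. The median over all genes depended on the fit, at -0.26 with DESeq2 and -0.02 without the host term. DESeq2 also called markers lower with *Myc*, 3 of 10 for GC B cells, 2 of 4 for macrophages and monocytes, 1 of 6 for T cells and 1 of 5 for plasma cells, where edgeR called 0, and their part in the members' values was not tested.

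*Bcl2a1b* was found more often in cells with a *Myc* count in every host. With the deposited counts, its share was 41.1 ± 13.5% in cells with *Myc* and 16.6 ± 6.06% in cells without (SD, n = 8 hosts). At equal depth, in the 7 hosts with at least 5 cells of each kind, it was 25%, 46.7%, 22.0% and 36.0% with *Myc* in A8, A10, A11 and A12 and 20.0%, 50% and 41.3% in V5, V7 and V9. Without *Myc* it was 7.69%, 9.38%, 19.0% and 15.1% in the same acalabrutinib hosts and 15.4%, 17.4% and 17.1% in the vehicle hosts. The *Myc* cells of V7, V5 and A8 numbered 6, 10 and 12 here. In A11 and V5 the shares lay close, with 11 of 50 against 12 of 63 cells and 2 of 10 against 6 of 39. The level of *Bcl2a1b* was higher with *Myc* in 6 of 8 hosts and lower in A11 and V5. It did not pass the test, with a log2 fold change of 0.96 ± 0.88 (edgeR adjusted p = 0.757).

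*Bid* at equal depth had a count in 60.5 ± 5.04% of cells with *Myc* and 44.8 ± 3.18% of cells without, higher in 7 of 7 hosts. With the deposited counts it was higher in 7 of 8, and A7, with 5 *Myc* cells, was the exception. The level of *Bid* did not pass the test, with a log2 fold change of 0.10 ± 0.36 (edgeR adjusted p = 0.958). Thus 2 of the 9 genes found in 5% of cells or more, *Bcl2a1b* and *Bid*, had a higher share in each of the 7 hosts, where 5.42% of such genes did. Of the 9, 0 had a lower share in each host, where 0.674% did.

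*Bcl2l1* was higher with *Myc* in 7 of 8 hosts. Its level with *Myc* was 145, 258, 271, 87.7 and 116 CPM in A7, A8, A10, A11 and A12 and 447 and 270 CPM in V7 and V9, against 20.8, 48.8, 43.6, 40.7, 88.5, 103 and 86.9 CPM without. *Myc* cells with a *Bcl2l1* count numbered 3 of 5, 5 of 13 and 5 of 16 in A7, A8 and A10. They numbered 15 of 50 and 9 of 26 in A11 and A12, and 2 of 6 and 22 of 47 in V7 and V9. In V5, 0 of 14 *Myc* cells had a *Bcl2l1* count, which allows a share of up to 21.4% (3 of 14). Of its other cells 12 of 57 (21.1%) had one, a share within that limit, and their level was 73.1 CPM. The log2 fold change was 1.37 ± 1.0 (edgeR adjusted p = 0.683), and without V5 it was 1.83 (adjusted p = 0.333). Of the 107 cells with 10 or more *Bcl2l1* counts, 43.9% had a *Myc* count, against 24.5% of the other cells. *S1pr2*, a receptor that holds cells in the GC, was found in 62.6% and 80.9% of these, and its part in the difference was not tested.

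Among the remaining genes *Bmf* stood at 14.6 ± 25.5 CPM with *Myc* and 22.6 ± 12.4 CPM without, lower in 6 of 8 hosts. A *Bmf* count was found in 11 of 177 cells with *Myc* (6.21%, 3.14 to 10.8) and in 39 of 460 without (8.48%, 6.10 to 11.4). In A8, A10 and V7 it was found in 0 of 13, 0 of 16 and 0 of 6 *Myc* cells. The log2 fold change of *Bmf* was -4.41 ± 2.86 (edgeR adjusted p = 0.632; DESeq2 -4.72, adjusted p = 0.00993), and without the host term it was -0.69. With 1 host left out the edgeR value lay between -2.91 and -2.85 without A8, A10, A11 or V7 and between -6.15 and -6.03 without A7, A12, V5 or V9. *Mcl1*, *Bcl2l11* and *Bax* gave values between -0.43 and -0.21, each with an SE of at least 0.38, *Bcl2* gave -0.11 ± 2.50, *Pmaip1* 0.96 ± 1.98 and *Bbc3* -1.94 ± 2.97.

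**Figure D4:**
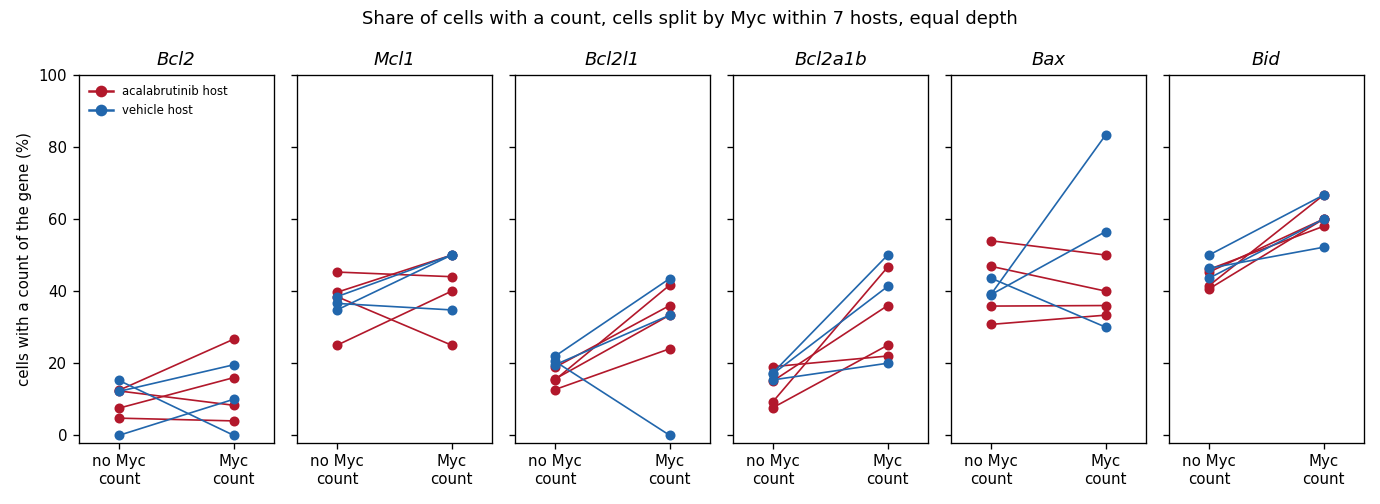
Percent of cells with a count of 6 of the genes among cells without and with a *Myc* count, all thinned to the same depth; each line joins the 2 values of 1 of 7 hosts (red, acalabrutinib; blue, vehicle). Lines for *Bcl2a1b* and *Bid* rise in all 7 hosts and those for *Bcl2l1* in 6.

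The balance of both sides was then described within cells. At equal depth a cell had a count of 0.916 ± 0.906 of the 4 anti-apoptotic genes and of 1.27 ± 0.914 of the 6 pro-apoptotic genes (SD over 573 cells). Genes of both sides were found in 51.5% of cells, pro-apoptotic genes alone in 27.9%, anti-apoptotic genes alone in 10.3% and neither in 10.3%. More pro- than anti-apoptotic genes were found in 45.4% of cells (41.2 to 49.6) and fewer in 22.3% (19.0 to 26.0). These shares depend on there being 6 genes on one side and 4 on the other, and are to be compared between groups of cells.

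**Figure D5:**
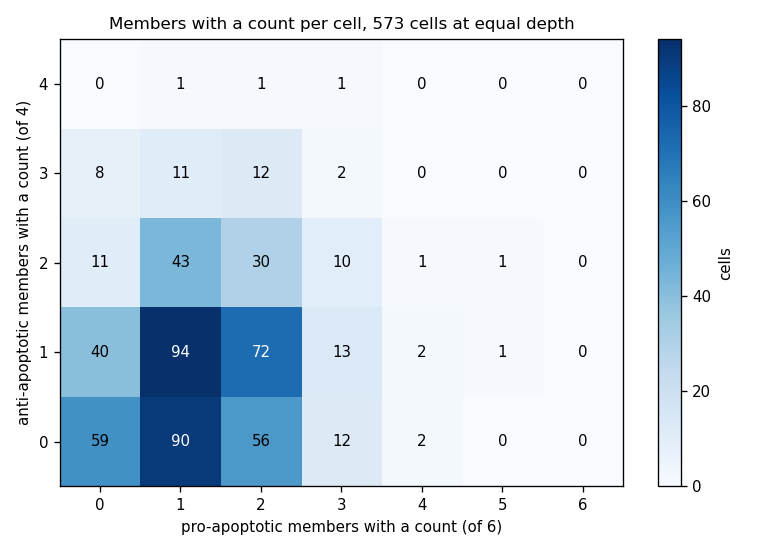
Number of cells, of 573 at equal depth, by how many of the 4 anti-apoptotic genes (vertical) and 6 pro-apoptotic genes (horizontal) had a count. The fullest square, with 94 cells, is 1 of each, and 59 cells had none of the 10.

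The share of cells with more pro- than anti-apoptotic genes was 42.0% (35.4 to 48.7) in G1, 50% (42.9 to 57.1) in S and 44.3% (36.2 to 52.7) in G2/M. These intervals overlapped, and they pool the cells of all hosts. By host it was 48.3%, 42.9%, 46.8%, 51.3% and 46.2% under acalabrutinib and 49.0%, 51.9% and 35.9% under vehicle. V9 was lowest and V7 highest, both of them vehicle hosts. Cells with a *Myc* count had 1.21 ± 0.996 anti- and 1.42 ± 0.851 pro-apoptotic genes, against 0.795 ± 0.838 and 1.20 ± 0.932 in the others (SD over cells), and genes of both sides were found in 65.5% and 45.7% of them. These values by *Myc* also pool the cells of all hosts. Of the 168 cells with *Myc*, 50 came from A11 and 46 from V9, and the part of host in the difference was not tested.

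In levels per kilobase, the summed anti-apoptotic genes amounted to 0.467 of the summed pro-apoptotic genes over all cells, and to 0.991 without *Bid*. Intron reads enter these ratios too, and their part was not tested. By host the ratio was 0.398, 0.476, 0.523, 0.357 and 0.483 in the acalabrutinib hosts (mean 0.447 ± 0.0680) and 0.373, 0.436 and 0.609 in the vehicle hosts (mean 0.472 ± 0.122). The means differed by less than either SD. By phase the ratio was 0.544 in G1, 0.393 in S and 0.458 in G2/M. The phase ratios come from counts pooled over all hosts and were not taken per host, so no order of phases is read from them.

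Having a count of one member showed at most a low correlation with having a count of another. A gene found in few cells, such as *Bbc3* (18 of 573), cannot reach a high correlation with a widely found one. Low values are therefore not read as a lack of relation. Over the 45 pairs the correlation of having a count (phi, across 573 cells thinned to equal depth, which share hosts and plates) ran from -0.07 to 0.19. The highest was that of *Bcl2l1* and *Bcl2a1b*, found together in 43 cells where the product of their shares gives 25.3, and the next that of *Bcl2* and *Bcl2l1* (0.13; 23 cells against 13.4). For BIM and the guardians that bind it, *Bcl2l11* was found in 13.5% of cells with *Mcl1* and 16.8% of cells without. The shares were 18.5% and 14.7% for *Bcl2l1*, 19.4% and 15.1% for *Bcl2*, and 17.9% and 14.9% for *Bcl2a1b*. Of 5100 genes with a count in 25% of cells or more, 0 had a rank correlation of 0.3 or more with any member across these cells, and the highest was 0.26, so none is named as following a member's pattern. For members found in few cells, this correlation is limited in the same way.

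Of 42 other genes of the pathway, 15 further BCL2 family genes, 14 apoptosome and caspase genes, 4 inhibitors of apoptosis and 9 upstream regulators, edgeR called 0 in any of the 6 fits. Between treatments 34 of the 42 were tested and 1 had an unadjusted p below 0.05, where 3.42% of all genes did. Between states 6 of 34 did, where 10.7% of all genes did, and with *Myc* 3 of 34, where 9.56% did. The median log2 fold change of these genes was 0.11, 0.20 and -0.11 in the 3 comparisons, against 0.02, 0.23 and -0.72 over all genes. DESeq2 called 9 gene and comparison pairs, of which 8 are named here, after their values were seen. Between states they were 5 of 34 genes, where 12% of all genes were called, with *Myc* 2 of 34, where 8.73% were, in G1 1, where 1.04% were, and in the interaction 1, where 2.88% were. The genes named were *Aifm1*, up with acalabrutinib in G1 and below 0 in the interaction, and *Birc3* and *Huwe1*, up with *Myc*. Also named were *Bcl2l14*, up in cycling cells, and *Birc3*, *Foxo1* and *Foxo3*, down in them. *Bcl2l14* had a count in only 9 cells (1.41%). Its DESeq2 log2 fold change of 10.5 had an interval from 4.58 to 16.4.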

How the data were processed

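Single-cell libraries were made by SMART-seq2. Per the labels and the study's methods, STARsolo 2.7.10a mapped reads to GRCm39, counted those over exons or introns and removed duplicates by exact position, and the authors deposited raw counts for 56691 genes in 637 cells (132412 to 1825420 counts per cell). Without molecular identifiers, amplified copies can still count more than once, so binomial intervals cover counting error only.

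Members, gene lists and comparisons were chosen with earlier results of these data known. Each member symbol had 1 entry. Counts were scaled to CPM per host. Phases were called with Seurat 5.3.0 (R 4.3.3). Counts summed per host, or per host and class of cells (at least 5 cells each), were tested with edgeR 4.0.16 (quasi-likelihood, TMM, filterByExpr, Benjamini-Hochberg over all genes tested) after tests on simulated data, with host as a block for states and *Myc* classes, since both classes come from the same animal. DESeq2 1.42.0, no filter, thinning, each host left out, no block, other definitions of the classes and a limit of 10 counts were alternatives. SEs were taken as the log2 fold change over the square root of F. Pathway genes were to be named where edgeR called them. Exon lengths and transcripts came from GENCODE M21 (GRCm38), so no coordinates are given. Summaries used pandas 2.3.3, SciPy 1.17.1 and NumPy 2.4.6 in Python 3.11.15. Genotypes were not analysed here. The result of 1 pathway gene is not reported here.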

Additional observations from a re-analysis of the deposited data

Results flagged for a closer look

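Among the 5 acalabrutinib hosts, 21 series of values were searched for a host that stands apart from the other four by a Dixon test, which chance passes in about 1 of 20 series, and 2 were found. *Bid* was lower in A10, at 191 CPM, than in the others, at 218 to 227 CPM. *Bcl2a1b* was found in 8.99% of A8 cells, against 23.1% to 26.7% in the others.

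For 2 of 20 differences between classes of cells, the acalabrutinib hosts all moved one way and the vehicle hosts all the other. How many of all genes split in this way was not counted, so 2 of 20 is not read as a result about the members. *Bcl2l11* was lower in S or G2/M than in G1 in the 5 acalabrutinib hosts (median difference -23.9 CPM) and higher in the 3 vehicle hosts (median 9.07 CPM). *Bax* did the same, with median differences of -13.5 CPM and 8.22 CPM. Neither split held with thinned counts, where A8, A12 and V5 turned for *Bcl2l11* (lower in 4 hosts and higher in 4) and V9 for *Bax* (42.5 against 46.4 CPM). The difference itself was tested by the interaction of treatment and state in edgeR. It was -1.08 ± 0.57 on the log2 scale for *Bcl2l11* (p = 0.0905, adjusted p = 1.0) and -1.04 ± 0.75 for *Bax* (p = 0.200, adjusted p = 1.0), and neither passed.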

How the results depend on the processing

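With DESeq2 in place of edgeR the numbers of called genes were 94 between treatments, 127 in G1, 48 in S or G2/M, 2159 between states (353 with edgeR), 449 for the interaction and 1551 with *Myc* (5 with edgeR), and the members *Bcl2* between states (-3.53) and *Bmf* with *Myc* (-4.72) passed. With *Myc* the count was 1 without a filter, 3 with thinned counts, 23 with no replicate block and 0 within G1 (4 hosts). Leaving out each host in turn gave 0 genes in the treatment and interaction fits, 236 to 285 between states and 0 to 2 with *Myc*. Both classes of a host come from the same animal, so the block stayed in the fit, and without the replicate block 446 genes were called between states and no member's call changed. Signs turned for *Mcl1* between treatments with thinned counts (-0.13), and between states for *Bcl2l1* with DESeq2 (-0.062) and no replicate block (-0.41), and for *Bcl2l11* (0.29) and *Bmf* (1.23) when cycling cells were taken by *Mki67* and *Top2a* counts. The cause was not tested.

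Leaving out 1 host turned signs in 2 comparisons and for *Bid* with *Myc* (-0.050 to 0.42). Between treatments the ranges were -0.010 to 0.20 for *Mcl1*, -0.23 to 0.41 for *Bcl2a1b*, -0.23 to 0.21 for *Bid* and -0.39 to 0.40 for *Bmf*. Between states they were -0.32 to 0.38 for *Bcl2l1*, -0.40 to 0.22 for *Bcl2a1b*, -2.43 to 0.30 for *Bbc3* and -1.87 to 0.048 for *Bmf*. With at least 10 counts asked for, shares fell to 3.77% for *Bcl2*, 29.98% for *Mcl1*, 16.8% for *Bcl2l1*, 8.48% for *Bcl2a1b*, 13.5% for *Bcl2l11*, 2.20% for *Bbc3*, 36.3% for *Bax*, 41.4% for *Bid* and 5.65% for *Bmf*. Thinning moved no member's share outside its interval. *Bbc3* rested on 23 cells and *Bcl2* on 24 with 10 or more counts.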
